A study of Mus musculus with 6 samples.

Results

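Aminoacyl-tRNA synthetases are described here through 36 genes taken by name, 20 whose enzymes work in the cytosol and 16 whose enzymes work in the mitochondria, out of 55401 rows of the count table. All 36 had a row and passed the filter on low counts, so none was left out. Symbols are those of GENCODE M21, in which the cytosolic genes carry no final number (Aars for the later Aars1) and the mitochondrial genes end in 2. RNA was sequenced from F4/80+ cells, the surface marker used to isolate macrophages, of mouse liver tumours. The tumours grew for 14 days from Hepa 1-6 cells, a mouse hepatoma line, placed in the right lobe of the liver. In 3 libraries, called Sms-OE, the injected tumour cells overexpressed Sms, the gene of spermine synthase, from a lentivirus. In the other 3, labelled WT Control and called control here, they did not. The sorted cells themselves were not the engineered ones. The sources used here do not give the strain, sex or age of the mice, the vector in the control cells or whether the Sms-OE line is 1 clone. Titles number the replicates without tying any to a separate mouse, and p-values therefore reflect only how these 6 samples vary.

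Each synthetase joins 1 kind of amino acid to its tRNA, the step that fixes which residue a codon stands for. Cytosol and mitochondria run separate sets of these enzymes, and the mitochondrial set is also encoded in the nucleus. Several cytosolic enzymes sit together in the multi-synthetase complex, held by the scaffold proteins Aimp1, Aimp2 and Eef1e1. When amino acids run short, uncharged tRNA activates the kinase Gcn2, phosphorylation of eIF2 alpha follows, and the transcription factor ATF4 raises many cytosolic synthetase genes through the C/EBP-ATF response element. In macrophages Wars, the tryptophan enzyme, is also known as a gene induced by interferon gamma.

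The response element is shown because it divides the cytosolic set by sequence, without use of any expression value. RefSeq promoters on GRCm38.p6, running from 250 bases before to 50 bases after the start, were found for 27 members, 13 cytosolic and 14 mitochondrial. The motif searched was TGATGNAA on both strands. It stood in the promoters of 5 cytosolic members (Aars, Gars, Iars, Tars and Yars) and 0 mitochondrial members. Counted by gene in the same way, it stood in 4.51% of all 27025 genes with a promoter, and in 3.97% of all 32851 promoter windows. The 6 matches lie in the following 40-base windows, each written 5′ to 3′ on the gene's own strand, with the match in capitals, as its reverse complement where it reads on the other strand.
Aars, upstream match, chr8:111033714-111033753, plus strand: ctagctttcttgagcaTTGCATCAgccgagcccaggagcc
Aars, match at the start, chr8:111033835-111033874, plus strand: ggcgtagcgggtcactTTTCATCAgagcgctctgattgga
Gars, chr6:55037955-55037994, plus strand: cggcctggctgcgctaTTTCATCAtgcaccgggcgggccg
Iars, chr13:49682121-49682160, plus strand: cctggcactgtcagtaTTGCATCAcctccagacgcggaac
Tars, chr15:11399650-11399689, minus strand: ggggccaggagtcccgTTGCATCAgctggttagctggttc
Yars, chr4:129189890-129189929, plus strand: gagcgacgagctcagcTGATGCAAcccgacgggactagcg
The promoter of Ears2, the mitochondrial glutamate enzyme and the member of lowest fold change, follows with its E-box, CACGTG, in capitals.
Ears2, chr7:122067037-122067336, minus strand: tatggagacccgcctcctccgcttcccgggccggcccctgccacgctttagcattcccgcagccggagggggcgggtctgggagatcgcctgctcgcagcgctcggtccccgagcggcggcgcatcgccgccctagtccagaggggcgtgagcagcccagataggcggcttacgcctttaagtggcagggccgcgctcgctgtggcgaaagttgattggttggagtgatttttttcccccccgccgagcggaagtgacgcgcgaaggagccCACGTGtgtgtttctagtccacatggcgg
The E-box, the letters bound by Myc and related factors, stood on either strand in 4 cytosolic members (Aars, Farsb, Iars and Tars). It also stood in 1 mitochondrial member (Ears2), 8.09% of all genes with a promoter and 7.15% of all windows. The site of the factor NRF1, GCGCATGCG, stood in Vars2 and Wars2, in 1.95% of genes with a promoter and in 1.75% of windows. Neither the E-box nor the NRF1 site overlapped a response element match, and a match is a description of letters and not of binding.

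Library totals were 49833764 to 51123047 estimated counts in Sms-OE and 51583985 to 58154006 in control. The 7 erythroid markers with a row had summed levels of 216 to 5050 CPM (counts scaled to a common library size) in Sms-OE and 43.2 to 189 CPM in control. Sms-OE 2 and 3 stood apart as haemoglobin-rich, with Hbb-bs, a beta globin, at 88.0, 1904 and 1879 CPM in Sms-OE 1 to 3 and 16.3, 38.6 and 71.3 CPM in control 1 to 3. The erythroid membrane marker Slc4a1 was at 0 in all 3 control libraries. Of the 5 erythroid markers tested 0 passed, while 5 were called higher with the DESeq2 Wald test. The macrophage genes Adgre1, which encodes F4/80, and Csf1r were present in every library and did not pass the test, and summed macrophage marker levels were 7544 to 8769 CPM in Sms-OE and 7520 to 7671 CPM in control, with 2 of 12 markers higher and 4 lower. Of 12 hepatocyte and hepatoma markers 9 were lower in Sms-OE and 0 higher, with summed levels of 730 to 997 CPM in Sms-OE and 1065 to 1365 CPM in control. Of 8 endothelial markers 6 were lower and 1 higher, of 8 T and NK cell markers 1 was higher, and of 8 neutrophil markers 0 passed. Summed neutrophil marker levels were 4378 to 6216 CPM in Sms-OE and 5334 to 7903 CPM in control, of the same order as the macrophage sums. For comparison with these marker counts, 14.3% of all genes tested were lower and 12.5% higher. Mitochondrially encoded genes took 3.12%, 2.42% and 2.15% of counts in Sms-OE 1 to 3 and 4.99%, 5.78% and 7.13% in control 1 to 3, without overlap. The part of these other cells and of this share in the results on synthetases was not tested. In sorted bulk RNA, fewer cells of a type and less RNA per cell cannot be told apart.

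In F4/80+ cells of Sms-OE tumours, 10 of the 20 cytosolic synthetase transcripts were lower and 0 higher. Of the 16 mitochondrial members 2 were lower and 0 higher. The test was edgeR's quasi-likelihood test with Benjamini-Hochberg adjustment over 18277 genes and a threshold of 0.05. Over all genes tested it called 26.9%, of which 14.3% of genes were lower and 12.5% higher. The cytosolic count thus stood above that background and the mitochondrial count near it. The sets also differed in level, with median mean CPM of 64.4 for cytosolic members, 6.93 for mitochondrial members and 7.96 for all genes tested. The difference between the counts of the 2 sets, and the part of level in it, was not tested. The median log2 fold change (Sms-OE over control) was -0.34 over the cytosolic members, -0.21 over the mitochondrial members and near 0 over all genes. By sign, 19 of 20 cytosolic and 13 of 16 mitochondrial members lay below 0. All 3 Sms-OE values lay below all 3 control values for 12 cytosolic and 5 mitochondrial members, against 23.3% of all genes tested. The reverse order, with all Sms-OE values above, held for 0 members of either set and 20.8% of all genes.

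**Figure D1:**
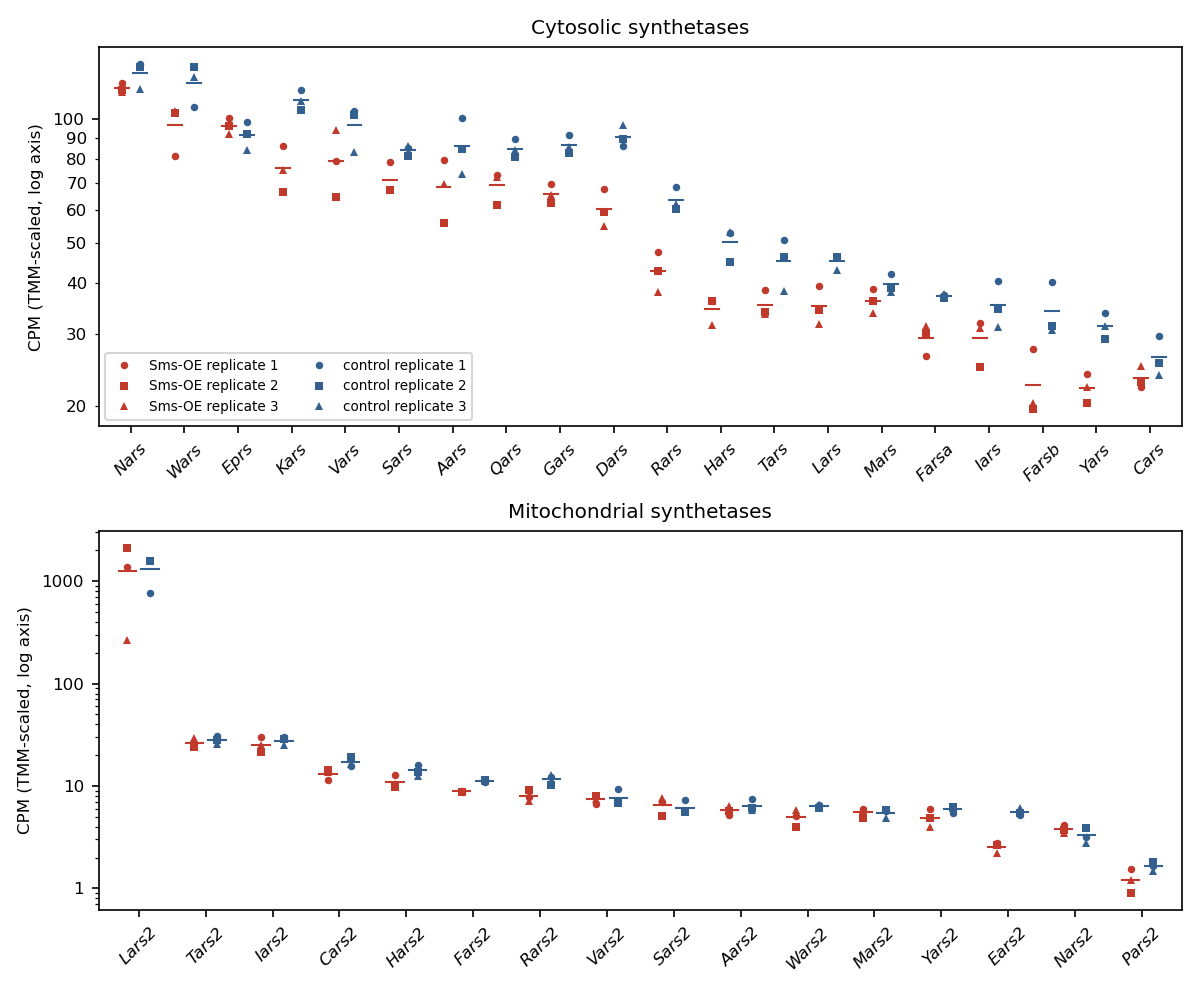
CPM of each synthetase in each library on a log axis, Sms-OE left of control for each gene, with a short line at each group's mean (n = 3 each); the upper panel holds the 20 cytosolic and the lower the 16 mitochondrial members, ordered by mean CPM. Most cytosolic genes sit lower in Sms-OE, while the 3 Sms-OE values of Lars2 span 266 to 2111 CPM.

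Summed over the 20 cytosolic members, the level was 1170, 1057 and 1110 CPM in Sms-OE 1 to 3 and 1457, 1379 and 1338 CPM in control 1 to 3. The groups did not overlap on this sum. Control 1 held the highest value of 13 cytosolic members, and Sms-OE 2 and Sms-OE 3, the haemoglobin-rich libraries, held the lowest values of 9 and 7. With both of those libraries left out, which leaves 1 Sms-OE library assumed to vary like the controls, 0 of the 36 members passed. The cytosolic median was then -0.27 and the mitochondrial median -0.15, and over all genes 694 were called lower and 690 higher.

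Of the 8 enzymes of the multi-synthetase complex, 5 were lower in Sms-OE, namely Dars, Rars, Kars, Lars and Qars, beside 14.3% of all genes tested. The count was 4 with DESeq2 size factors, upper-quartile factors, limma-voom or length and GC offsets, and 3 with library size alone. Without control 1, control 2, Sms-OE 2 or Sms-OE 3 the count was 3. Dars, the aspartate enzyme (ENSMUSG00000026356, chromosome 1, 128363707 to 128417368 in GRCm38), stood at 67.5, 59.3 and 54.8 CPM in Sms-OE and 85.8, 89.5 and 96.7 CPM in control. Its groups were well apart, and its log2 fold change was -0.58 ± 0.10 (SE) with an adjusted p of 0.00259. Rars, the arginine enzyme, had 47.6, 42.6 and 38.0 CPM in Sms-OE and 68.4, 60.3 and 62.2 CPM in control. Its groups did not overlap either, at a log2 fold change of -0.57 ± 0.10 and an adjusted p of 0.00347. Kars (chromosome 8, 111993443 to 112011323), whose single gene supplies the lysine enzyme of both cytosol and mitochondria, had 85.9, 66.4 and 75.2 CPM in Sms-OE and 117, 105 and 111 CPM in control. Every Sms-OE value was below every control value (log2 fold change -0.55 ± 0.10, adjusted p 0.00441). Lars, the leucine enzyme, known also as a leucine sensor upstream of mTORC1, had 39.2, 34.3 and 31.7 CPM in Sms-OE and 46.1, 46.1 and 42.8 CPM in control. The gap was narrower here, at a log2 fold change of -0.36 ± 0.10 and an adjusted p of 0.0271, and in the 6 fits that leave out 1 library the call was lost without control 1, control 2, Sms-OE 2 or Sms-OE 3, with adjusted p up to 0.0883. Qars, the glutamine enzyme, had a log2 fold change of -0.30 and passed at an adjusted p of 0.0407 with all libraries, but not without any 1 of the 3 control libraries, Sms-OE 2 or Sms-OE 3, with adjusted p up to 0.126. Its call was also lost with DESeq2 size factors, upper-quartile factors, library size alone, limma-voom or length and GC offsets.

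The other 3 enzymes of the complex did not pass. Eprs, which charges both glutamate and proline and also serves in an interferon-gamma-dependent block of translation, had 101, 96.3 and 92.1 CPM in Sms-OE and 98.6, 92.1 and 84.1 CPM in control. Its groups overlapped, and it was the only cytosolic member with a log2 fold change above 0 (0.07 ± 0.09, adjusted p 0.588), though below 0 with length and GC offsets (-0.0452). Iars, for isoleucine, had 31.9, 24.97 and 31.03 CPM in Sms-OE and 40.4, 34.5 and 31.1 CPM in control, with a log2 fold change of -0.27 and an adjusted p of 0.162, and its groups overlapped. Mars, for methionine, had a log2 fold change of -0.13 and overlapping groups.

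Among the cytosolic enzymes outside the complex, 5 of 12 were lower, beside the same 14.3% of all genes tested. Enzymes inside and outside the complex were not compared by a test. Hars, the histidine enzyme, had 36.02, 36.1 and 31.6 CPM in Sms-OE and 52.8, 44.8 and 53.1 CPM in control. These groups did not overlap, at a log2 fold change of -0.54 ± 0.10 and an adjusted p of 0.00487. Gars (chromosome 6, 55038007 to 55079500), which supplies the glycine enzyme of both compartments, had 69.6, 62.6 and 65.4 CPM in Sms-OE and 91.5, 82.8 and 85.3 CPM in control. Both groups were tight and separate (log2 fold change -0.39 ± 0.08, adjusted p 0.00794). Yars, the tyrosine enzyme, had 24.0, 20.4 and 22.3 CPM in Sms-OE and 33.7, 29.2 and 31.4 CPM in control. It too was lower in every Sms-OE library, by a log2 fold change of -0.50 ± 0.11 at an adjusted p of 0.00847.

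The phenylalanine enzyme is built from 2 kinds of subunit, and both genes were lower in Sms-OE. Farsb, the beta subunit, had 27.6, 19.7 and 20.3 CPM in Sms-OE and 40.2, 31.4 and 30.8 CPM in control, with no overlap. Its log2 fold change of -0.60 ± 0.16 (adjusted p 0.0187) was the lowest of the cytosolic set, and the call was lost without control 1, Sms-OE 2 or Sms-OE 3, with adjusted p up to 0.0724. Farsa, the alpha subunit, had a log2 fold change of -0.34 (adjusted p 0.0289) and did not pass without any 1 of the 3 control libraries or Sms-OE 1, with adjusted p up to 0.0795. Across the 12 called members, all 12 lay below 0 in all 6 fits that leave out 1 library, and 7 passed in every one (Dars, Gars, Hars, Kars, Rars, Yars and Ears2). These fits share most of their libraries with the fit that picked the 12, so the kept sign is no separate support.

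Wars, the tryptophan enzyme, had 81.2, 104 and 104 CPM in Sms-OE and 107, 134 and 127 CPM in control. All 3 Sms-OE values lay below the control values, but its log2 fold change of -0.34 ± 0.12 missed the threshold at an adjusted p of 0.0575. Tars and Sars, for threonine and serine, also missed it at adjusted p of 0.0506 and 0.0706, with log2 fold changes of -0.35 and -0.24. Tars passed in some alternatives, among them the DESeq2 Wald test, limma-voom, the replicate block and the fits without control 3 or Sms-OE 1. Wars passed with limma-voom, the replicate block or without control 1, and Sars without Sms-OE 1 or with length and GC offsets. Nars, for asparagine, had 122, 118 and 116 CPM in Sms-OE and 136, 133 and 119 CPM in control, with overlapping groups and a log2 fold change of -0.12. Aars, Vars and Cars, for alanine, valine and cysteine, had log2 fold changes of -0.33, -0.29 and -0.17 and did not pass, with overlapping groups in each.

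**Figure D2:**
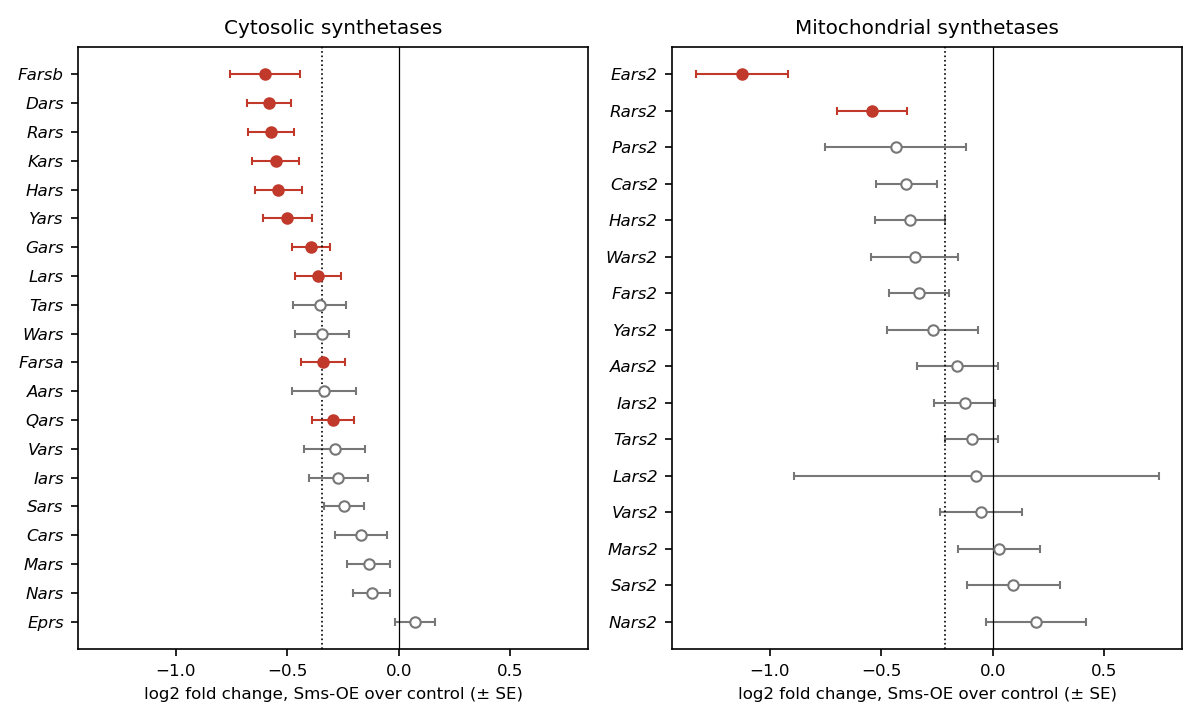
Log2 fold change (Sms-OE over control) with its standard error for each synthetase; filled red points passed the threshold, open grey points did not, and the dotted line marks each panel's median. Eprs alone lies above 0 among the cytosolic members (at -0.0452 with length and GC offsets), and Ears2 is the lowest point of either panel.

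In the mitochondrial set Ears2 and Rars2 were lower in Sms-OE, and Ears2 alone without control 1, control 3, Sms-OE 1 or Sms-OE 3. Ears2 (ENSMUSG00000030871, chromosome 7, 122037213 to 122067263), which charges mitochondrial tRNA with glutamate, had 2.79, 2.67 and 2.203 CPM in Sms-OE and 5.21, 5.43 and 6.08 CPM in control. Every control value was well above every Sms-OE value, with a log2 fold change of -1.12 ± 0.21 and an adjusted p of 0.00394. Without the haemoglobin-rich libraries its log2 fold change was -1.004, at an adjusted p of 0.0723. Ears2 shares 89 exon bases on opposite strands with Ubfd1, which had 8153 counts over all libraries against 1301 for Ears2 and a log2 fold change of -0.29 (adjusted p 0.0688). No source used here gives the strand setting of the counting, so reads of that stretch cannot be told apart.

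Rars2, the mitochondrial arginine enzyme, had 7.87, 9.11 and 7.21 CPM in Sms-OE and 12.2, 10.3 and 12.7 CPM in control. Its groups did not overlap (log2 fold change -0.54 ± 0.16, adjusted p 0.0296), but the call was lost without control 1, control 3, Sms-OE 1 or Sms-OE 3, with adjusted p up to 0.0931. Cars2, Fars2 and Wars2 had all Sms-OE values below all control values without passing, at log2 fold changes of -0.39, -0.33 and -0.35. The limit on strand given for Ears2 holds here too. Cars2 shares 422 exon bases on opposite strands with Naxd, at a log2 fold change of -0.42 (adjusted p 0.0874). Fars2 shares 501 with Nrn1 (-0.72, adjusted p 0.051) and 115 with Lyrm4 (-0.28, adjusted p 0.481). Pars2, the proline enzyme and the member of lowest level, had 1.54, 0.903 and 1.20 CPM in Sms-OE and 1.65, 1.79 and 1.48 CPM in control, and its groups overlapped (log2 fold change -0.44). Tars2, the threonine enzyme, had 25.5, 24.1 and 29.5 CPM in Sms-OE and 30.8, 27.9 and 25.7 CPM in control, again overlapping (log2 fold change -0.09). Mars2, Sars2 and Nars2 had log2 fold changes above 0, of 0.03, 0.09 and 0.20, and that of Mars2 was -0.37 with length and GC offsets. The remaining members Aars2, Hars2, Iars2, Vars2 and Yars2 lay between -0.37 and -0.05, with overlapping groups. Iars2 shares 2034 exon bases on the opposite strand with Rab3gap2, which was higher in Sms-OE (log2 fold change 0.25, adjusted p 0.0409).

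Lars2, listed as the mitochondrial leucine enzyme, gave the widest spread of any member. Its counts were 72009, 105141 and 13778 in Sms-OE 1 to 3 and 45525, 89072 and 75985 in control 1 to 3. These counts followed those of CT010467.1, the only row annotated as rRNA with a mean count of at least 500, which were 315609, 478858 and 87626 in Sms-OE and 191687, 361544 and 310250 in control. The ratio of Lars2 to this row was 0.228, 0.220 and 0.157 in Sms-OE and 0.238, 0.246 and 0.245 in control, so it varied far less than Lars2 itself. The Lars2-201 transcript holds a stretch of 72 bases that is 98.6% identical to Gm15564, an annotated antisense gene. No other gene, CT010467.1 included, matched Lars2 over at least 50 bases at 95% identity or more. The search covered GENCODE M21 transcripts alone, so a match to rRNA sequence outside them could not be found. Gm15564 itself had 4 counts in control 1 and 0 in every other library. The log2 fold change of Lars2 was -0.07 ± 0.82 with an adjusted p of 0.962, and the part of rRNA reads in its level was not tested. Without Lars2 the mitochondrial median log2 fold change was -0.27, and the summed level of the other 15 was 140, 127 and 139 CPM in Sms-OE and 167, 159 and 150 CPM in control.

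**Figure D3:**
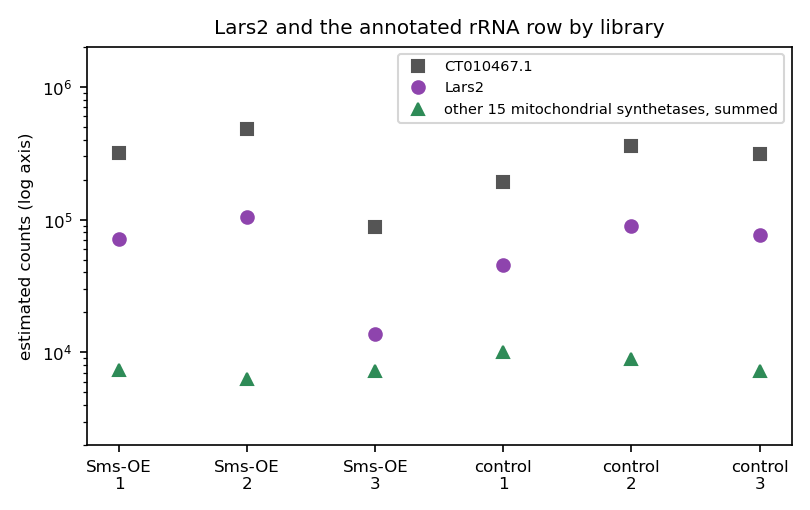
Estimated counts, on a log axis, of the rRNA row CT010467.1 (squares), of Lars2 (circles) and of the other 15 mitochondrial synthetases summed (triangles) in each library, Sms-OE left of control. Lars2 and the rRNA row are both lowest in Sms-OE 3, at 13778 and 87626 counts, while the triangles do not drop there.

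Per kilobase of transcript, the scale used to set genes side by side, cytosolic members had a median level of 20.2 CPM per kb over all libraries and mitochondrial members without Lars2 one of 1.99. Nars was the highest cytosolic gene at 45.2 CPM per kb and Iars the lowest at 7.30. In Sms-OE, Nars at 43.3 ± 1.14 CPM per kb stood above Kars at 34.6 ± 4.47 and Wars at 34.1 ± 4.66 (SD, n = 3). In control, Kars stood at 50.8 ± 2.82, Nars at 47.1 ± 3.41 and Wars at 43.3 ± 4.90, and the ranges of mean ± SD of neighbours overlapped. Of the mitochondrial genes other than Lars2, Tars2 was highest at 8.44 and Pars2 lowest at 0.468. Lars2 stood at 329 CPM per kb, above every other member, with the limit given above. The range of the cytosolic set and that of the mitochondrial set touched, since Tars2 and Cars2 lay above Cars at 7.73 and Iars.

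Setting each cytosolic gene against the mitochondrial gene for the same amino acid gave 14 pairs without Lars2, with Fars2 used against both Farsa and Farsb. The log2 ratio of cytosolic to mitochondrial CPM was lower in Sms-OE in 12 of 14 pairs, with a median difference (Sms-OE minus control) of -0.17. The differences ran between -0.33 for Sars with Sars2 and 0.22 for Cars with Cars2. As a mean over each set without Lars2, the cytosolic minus mitochondrial log2 CPM was 2.84 ± 0.020 in Sms-OE and 2.92 ± 0.028 in control (SD, n = 3 each). The groups did not overlap, and the difference (Sms-OE minus control) was -0.0837, a description with no test.

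**Figure D4:**
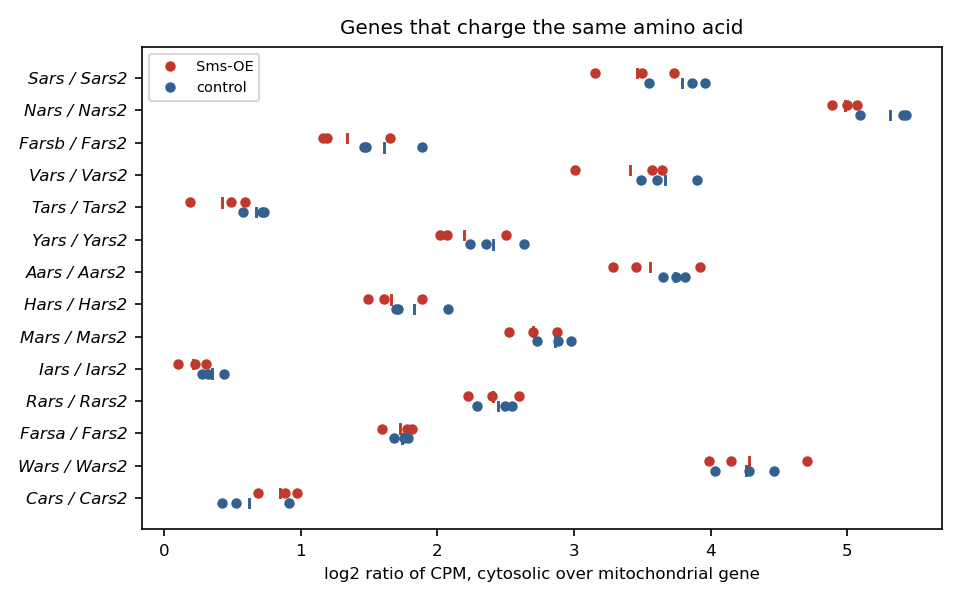
Log2 ratio of the CPM of the cytosolic gene to that of the mitochondrial gene for the same amino acid, in each library, Sms-OE (red) above control (blue) for each pair, with a tick at each group's mean (n = 3 each). The ratio is lower in Sms-OE for 12 of the 14 pairs, with the 2 groups overlapping in most.

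The cytosolic set was also divided by the enzymes known, mostly from human and mouse cells under amino acid shortage, to be raised by ATF4. Of 13 such genes 3 were lower in Sms-OE (Gars, Lars and Yars), beside 14.3% of all genes tested. Their median log2 fold change was -0.29. Of the 7 others (Dars, Farsa, Farsb, Hars, Kars, Qars and Rars) all 7 were lower, with a median of -0.55. Without control 1 the count was 4 of the 7, and without any other single library it was 5 or 6. For the 13 it ran between 2 and 5, the 5 without Sms-OE 1, and without both haemoglobin-rich libraries it was 0 in each. With library size alone the count was 4 of the 7 and 1 of the 13. With DESeq2 size factors or upper-quartile factors the counts were 6 and 3, and with limma-voom 6 and 5. The difference between the 13 and the 7 was not tested, and they also differed in transcript length, with medians of 3570 and 2109 bases. Over all genes, the median log2 fold change was -0.16 among the shortest transcripts and 0.20 among the longest when genes were put into 4 equal bins by length. With offsets for length and GC content, 7 of the 13 and 4 of the 7 were lower, with medians of -0.32 and -0.41. The calls gained were Aars, Sars, Tars and Vars and those lost were Farsa, Farsb and Qars. Among the 5 genes with the response element shown above, Gars and Yars were lower and Aars, Iars and Tars did not pass.

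Of 29 other ATF4 targets tested, 6 were higher and 5 lower in Sms-OE, with a median log2 fold change of 0.16, against 12.5% higher and 14.3% lower over all genes. Their difference from the synthetases was not tested. The count of lower targets was 2 to 4 when 1 library was left out, the 2 without control 2. Slc38a2, a transporter of small neutral amino acids, had 359, 339 and 344 CPM in Sms-OE and 173, 168 and 163 CPM in control. Its groups were far apart, at a log2 fold change of 1.05 and an adjusted p of 0.00012. Slc7a11, the cystine transporter, was higher as well, with 795, 1163 and 772 CPM in Sms-OE and 275, 316 and 299 CPM in control (log2 fold change 1.62, adjusted p 0.000231). Psat1 and Shmt2, of serine and glycine metabolism, were lower, at log2 fold changes of -0.99 (adjusted p 0.00138) and -0.64 (adjusted p 0.00297). Psat1 had 32.4, 24.3 and 25.9 CPM in Sms-OE and 64.3, 52.8 and 46.6 CPM in control. Asns, the asparagine synthetase and a common readout of ATF4, had 12.2, 8.79 and 8.64 CPM in Sms-OE and 12.0, 8.85 and 9.37 CPM in control, and is named here after its values were seen. The groups overlapped almost entirely (log2 fold change -0.03, adjusted p 0.936).

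Upstream of these genes, 2 of 8 were higher and 1 lower, beside the same 12.5% higher and 14.3% lower over all genes. The count of higher genes was 1 in each fit without 1 library other than the one without Sms-OE 2. Eif2s1, which encodes eIF2 alpha itself, had 58.2, 60.3 and 51.0 CPM in Sms-OE and 84.8, 85.5 and 86.1 CPM in control (log2 fold change -0.60, adjusted p 0.00147). Ppp1r15b, a subunit of the phosphatase that acts on eIF2 alpha, was higher (0.44, adjusted p 0.00369), as was Eif2ak3, the kinase PERK (0.34, adjusted p 0.0345). Atf4 had all Sms-OE values above the control values but did not pass, at a log2 fold change of 0.31 and an adjusted p of 0.0809, and Eif2ak4, which encodes Gcn2, overlapped between groups.

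Of 20 genes whose products work beside the synthetases, 10 were lower and 0 higher, against 14.3% lower over all genes. Their median log2 fold change was -0.48, and all 20 lay below 0, but 16 did with library size alone or with length and GC offsets. Eef1e1, a scaffold of the complex, had 13.03, 10.9 and 9.37 CPM in Sms-OE and 19.1, 20.1 and 22.2 CPM in control. The groups were clearly apart (log2 fold change -0.88, adjusted p 0.00238). Of the other scaffolds Aimp1 was lower (-0.33, adjusted p 0.0298) and Aimp2 did not pass. Eef1g and Eef1d, subunits of the exchange factor that reloads the tRNA carrier eEF1A, were lower at -0.62 (adjusted p 0.00175) and -0.54 (adjusted p 0.00282). Sepsecs, which makes the selenocysteine carried by its tRNA, had 6.49, 6.08 and 7.15 CPM in Sms-OE and 14.0, 12.2 and 10.4 CPM in control. It was the lowest of the list, at -0.89 (adjusted p 0.00373). On the mitochondrial side Tufm and Tsfm, elongation factors, and Gatb, of the enzyme that makes glutaminyl-tRNA there, were lower at -0.58, -0.60 and -0.77. Without the haemoglobin-rich libraries 2 of the 20 were lower, and without Sms-OE 3 alone 6 were.

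Of 14 interferon-gamma targets, the set to which Wars belongs in macrophages, 8 were lower and 0 higher. Over all genes 14.3% were lower and 12.5% higher. The median log2 fold change of the 14 targets was -0.57. Cxcl9, a chemokine that attracts T cells, had 130, 129 and 144 CPM in Sms-OE and 406, 379 and 393 CPM in control. The gap was wide and the replicates close (log2 fold change -1.54, adjusted p 4.17e-05). Iigp1, an immunity GTPase, Ciita, the regulator of MHC class II genes, and H2-Aa, an MHC class II chain, were lower at -0.97, -1.23 and -1.09. Wars at -0.34 lay above that median.

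**Figure D5:**
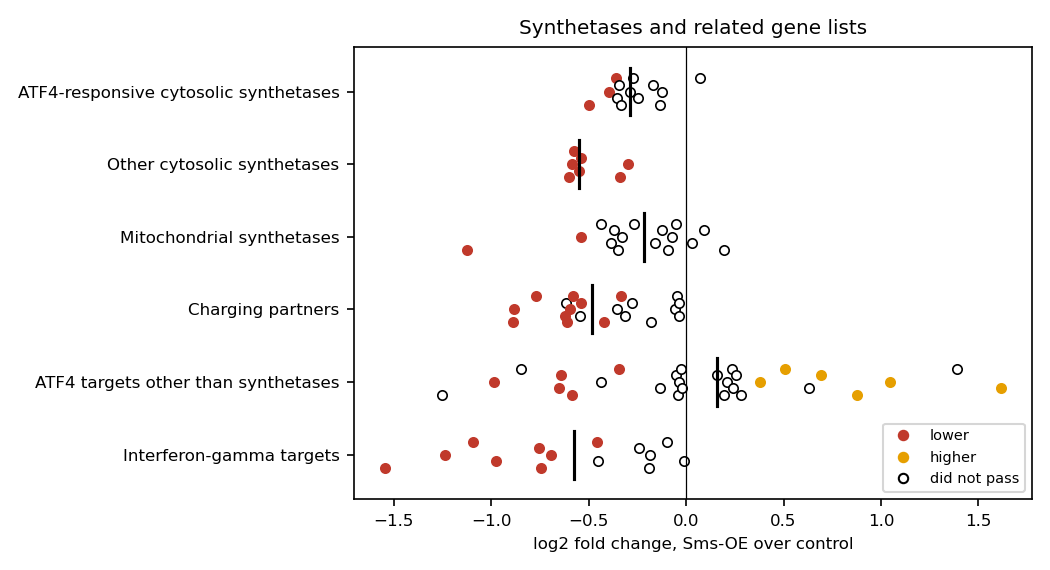
Log2 fold change (Sms-OE over control) of each tested gene of 6 lists, with a vertical bar at each list's median; red points were lower, orange points higher, and open points did not pass. Synthetases and charging partners lie mostly left of 0, while ATF4 targets fall on both sides, with 6 higher and 5 lower.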

How the data were processed

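Values are the deposited, unnormalized estimated counts of each gene, already whole, so rounding changed nothing. Reads were handled with HISAT2 2.2.1 and StringTie 2.1.6, with cutadapt 1.9, FastQC 0.11.9 and DESeq2 also listed, per the submitters' processing notes. Per the labels' protocols, RNA was selected on oligo(dT) beads and the strand was marked with dUTP. For the counting, genome build, annotation and strand setting were not given in the sources used here. Symbols, coordinates and transcript lengths came from GENCODE M21 (GRCm38) by Ensembl identifier, for 55141 of 55401 rows.

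Groups came from the sample titles. The test was edgeR 4.0.16 in R 4.3.3: filterByExpr by group, TMM factors, a robust quasi-likelihood fit and Benjamini-Hochberg adjustment over 18277 genes. CPM use TMM-scaled library sizes, levels per kb use the longest protein-coding transcript, and mean log2 CPM used a prior count of 2. Standard errors follow from each gene's F statistic. The steps were tested on simulated data. No 2 libraries of 1 group shared more than 17.3% of identical counts.

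The members and the lists were chosen with earlier results of these data known, and the lists come from general knowledge. Values in every library are given for up to 8 called members per compartment by smallest p, for the highest and lowest level per kb, and for Wars, Eprs, Gars, Kars and Lars. For other lists up to 4 called genes by smallest p are named. Others named, such as Asns, Atf4, Aimp1, Tufm and the marker genes, were chosen after their values were seen. Another motif searched is not reported here.

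Alternatives were library size alone, upper-quartile factors or the size factors of DESeq2 1.42.0, other low-count filters, the DESeq2 Wald test, limma-voom (limma 3.58.1), a fit without the robust step, a block for the replicate number, a hepatocyte marker covariate, length and GC offsets, and each library left out. Leaving out both haemoglobin-rich libraries and removing haemoglobin, mitochondrially encoded, rRNA and Lars2 rows were added after the data were seen.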

Additional observations from a re-analysis of the deposited data

How the results depend on the processing

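Of 683 values of single members under the alternatives, 590 kept their direction and side of the threshold, 58 lost the call, 16 gained it and 19 changed sign, none of them called with all libraries or in the alternative. Only the 12 members called with all libraries could lose a call, so all 58 losses fell on them and the 683 is not their base. Of those 12, 7 passed in every fit that leaves out 1 library. With the hepatocyte marker covariate the log2 fold changes of opposite sign were 0.0029 for Mars, 0.0783 for Sars, 4.44 for Lars2, -0.28 for Mars2, -0.52 for Sars2 and 0.68 for Yars2. They were -0.0452 for Eprs and -0.37 for Mars2 with length and GC offsets, and 0.0950 for Iars2 and 0.0509 for Lars2 without both haemoglobin-rich libraries. With 1 library left out, values on both sides of 0 ran between -0.70 and 0.40 for Lars2, -0.0631 and 0.10 for Mars2, -0.0295 and 0.24 for Sars2 and -0.14 and 0.11 for Vars2. The 10 cytosolic and 2 mitochondrial members called lower became 5 and 1 with library size alone, which also moved the median of all genes to 0.06 and the split of calls to 2521 higher and 1788 lower. With the hepatocyte marker covariate, 0 cytosolic members, 0 mitochondrial members and 0 genes in all, higher or lower, were called. That covariate itself did not overlap between groups, at 2.62 to 3.51 (mean log2 CPM) in Sms-OE and 4.76 to 5.35 in control. With both haemoglobin-rich libraries left out, 0 and 0 members were called, with 694 genes lower and 690 higher. Length and GC offsets left 1 mitochondrial member lower and a mitochondrial median of -0.29. Leaving out 1 library gave 7 to 11 cytosolic and 1 to 2 mitochondrial members lower, 1684 to 2473 genes lower and 1366 to 2015 higher. The mitochondrial median ran between -0.30 and -0.21 in those fits and was -0.31 with limma-voom and -0.34 with the covariate. The difference of the cytosolic and mitochondrial medians, -0.13, ran between -0.16 and -0.0004, the last without control 1, and was -0.0363 with limma-voom and -0.0382 with the covariate. In their deviations from group means, same-numbered libraries of the 2 groups correlated at 0.310, 0.083 and -0.098. Libraries of unlike number correlated at -0.348 to 0.298. With 3 libraries per group, these values cannot settle whether the replicate numbers pair the samples. With the replicate number as a block, 12 cytosolic and 1 mitochondrial members were lower, the mitochondrial median was -0.31 and the difference of medians -0.0374. Causes of these shifts were not tested. Counts per library were 982 to 8137 for cytosolic members, and at most 1847 for mitochondrial members other than Lars2, down to 45.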
